A study of Mus musculus with 17 samples.

Results

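The genes described here make, sense and export sterols and fatty acids, and their transcript levels were followed in activated mouse CD4 T cells. The list holds 38 genes, matched to the array by symbol and Entrez number. A named probe set was found for 36 of them, and all 36 were bright enough to be tested, out of 18194 genes with a named probe set. Acat2 and Nr1h2 had none in the gene table used and are not analysed here. The list holds 18 sterol enzymes, of which 17 were measured, 6 regulators and sensors, 9 enzymes of fatty acid synthesis and desaturation, and 5 liver X receptor genes and targets, of which 4 were measured.

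Cholesterol is built from acetyl-CoA through mevalonate, squalene and lanosterol, and fatty acids are built from the same precursor through malonyl-CoA. When membrane sterol is low, the SCAP protein escorts the SREBP transcription factors out of the endoplasmic reticulum, and they switch on the genes of both routes. INSIG proteins hold that complex back when sterol is plentiful. Oxysterols, which are oxidised forms of cholesterol, activate liver X receptors (LXRs), and these raise cholesterol exporters such as ABCA1 and ABCG1. T cells that divide after activation draw on this machinery to build membrane.

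The 17 arrays came from 2 experiments, each array from cells pooled from 3 male mice aged 6 to 10 weeks. In the co-culture experiment, splenic CD4+Foxp3- T cells of C57BL/6-Foxp3/GFP mice were grown for 5 days at 10 T cells per dendritic cell (DC) with anti-CD3 (1 ug/ml), TGFbeta (0.6 ng/ml) and IL-2 (5 ng/ml). The dendritic cells came from lamina propria, the connective layer under the gut lining (LP-DC), or from spleen (Sp-DC), and retinoic acid (RA, 100 nM) was added to some Sp-DC cultures. Cells were then sorted by the Foxp3/GFP reporter, which marks regulatory T cells, into Foxp3+ and Foxp3- cells. There were 2 arrays for each sort from LP-DC cultures, 2 for each sort from Sp-DC cultures, 2 of Foxp3+ cells from Sp-DC plus RA and 1 of Foxp3- cells from Sp-DC plus RA. In the memory experiment, CD44hiCD62L-CD25-CD4+ memory T cells of C57BL/6 mice were grown for 48 h with naive CD4 T cells at 2 to 1, with TGFbeta (10 ng/ml), IL-2 (20 U/ml) and beads carrying anti-CD3 and anti-CD28. Memory cells were recovered by a congenic marker, with 3 arrays without RA and 3 with RA at 100 nM. Each array carries a number, 1 to 3, in its label.

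The promoters of 5 members are shown as examples: the first 4 were lower in cells from LP-DC cultures or with RA, and Abca1 was higher. Hmgcs1 passed the threshold used below only with RA in memory cells. Other members that passed, Pmvk among them, are not shown. Each line holds the 250 bases before the RefSeq start site (assembly GRCm38.p6), on the gene's own strand. The spans are chr13:119690101-119690350 (plus) for Hmgcs1, chr8:122443423-122443672 (minus) for Mvd, chr10:76531355-76531604 (plus) for Lss, chr8:64733579-64733828 (minus) for Msmo1 and chr4:53159896-53160145 (minus) for Abca1. Capitals mark CCAAT, the letters of the NF-Y factor's motif, read as ATTGG on the other strand, and in Hmgcs1 also TCACCCCAC, a match to the SREBP motif.
Hmgcs1: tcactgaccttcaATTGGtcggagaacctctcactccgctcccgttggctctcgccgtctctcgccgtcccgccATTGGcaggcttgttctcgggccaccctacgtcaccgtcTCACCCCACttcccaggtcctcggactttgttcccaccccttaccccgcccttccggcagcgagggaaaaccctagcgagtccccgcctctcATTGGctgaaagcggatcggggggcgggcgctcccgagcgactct
Mvd: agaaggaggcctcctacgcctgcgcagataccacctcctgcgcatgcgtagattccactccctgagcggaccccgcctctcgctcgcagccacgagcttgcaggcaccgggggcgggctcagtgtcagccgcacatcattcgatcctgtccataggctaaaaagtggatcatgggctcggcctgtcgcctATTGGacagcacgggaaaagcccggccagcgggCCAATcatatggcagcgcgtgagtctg
Lss: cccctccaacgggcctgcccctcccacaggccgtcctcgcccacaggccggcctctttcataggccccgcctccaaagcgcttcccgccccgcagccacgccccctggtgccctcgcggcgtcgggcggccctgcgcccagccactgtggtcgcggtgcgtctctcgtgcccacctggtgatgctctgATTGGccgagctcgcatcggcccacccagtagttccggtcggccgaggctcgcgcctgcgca
Msmo1: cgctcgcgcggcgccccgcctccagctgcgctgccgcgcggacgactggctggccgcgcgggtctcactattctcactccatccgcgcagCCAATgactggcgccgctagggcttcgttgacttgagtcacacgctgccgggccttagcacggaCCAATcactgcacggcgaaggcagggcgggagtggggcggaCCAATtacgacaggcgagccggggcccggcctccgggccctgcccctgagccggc
Abca1: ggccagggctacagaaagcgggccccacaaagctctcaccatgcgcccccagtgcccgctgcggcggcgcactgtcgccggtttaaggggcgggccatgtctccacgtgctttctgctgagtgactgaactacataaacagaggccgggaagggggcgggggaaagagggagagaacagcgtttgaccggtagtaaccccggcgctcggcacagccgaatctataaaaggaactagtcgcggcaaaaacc

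The motif search covered both strands of 300-base windows, 250 bases before and 50 after each start, and 30 of the 38 genes had a window. CCAAT stood in at least 1 window of 14 of the 15 sterol enzyme genes that had one. Counted by window, it was in 14 of 18 sterol enzyme windows (77.8%), in 9 of 21 windows of the other members (42.9%) and in 12289 of all 32851 windows (37.4%). The SREBP motif TCACNCCAC was found in Hmgcs1 alone among the members, against 1.24% of all windows. Exact direct repeats of AGGTCA spaced by 4 bases, bound by LXRs, and by 5 bases, bound by RA receptors, were in no member's window. They were in 0.0152% and 0.00913% of all windows. Looser forms of these repeats were not searched, so the search cannot show that a member, Abca1 included, lacks such a site. These matches describe letters in the windows and were not tested for binding.

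Values are log2 of the authors' array intensities, and the median probe set of an array lay between 5.88 and 5.98. The 6 measured T cell markers were above the array median on all 17 arrays. Foxp3 itself lay between 3.88 and 4.53 on all 11 co-culture arrays, below the array medians in both sorts, so its probe set does not check the sort. The 5 regulatory T cell markers as a list averaged 9.30 to 10.26 in Foxp3+ and 8.65 to 8.84 in Foxp3- cells of the LP-DC and Sp-DC cultures. RA raised Cyp26b1, an RA-degrading enzyme, by 2.72 ± 0.15 (SE; limma without the block described below, adjusted p = 0.000537) in Foxp3+ cells. The memory arrays numbered 3, with and without RA, stood apart: their median correlations with the other memory arrays were 0.942 and 0.947, against 0.982 to 0.983 for the other 4. The memory calls of members, the medians of the members and sterol enzymes, and the differences of the called members are therefore given with and without them. Memory results for marker genes and for other lipid genes are given only with them.

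Transcripts of the sterol pathway were lower in T cells grown with lamina propria than with splenic dendritic cells, in both sorts, and the cholesterol exporter Abca1 was higher. The sterol enzymes as a group averaged 9.87 and 9.99 on the 2 Foxp3- arrays from Sp-DC cultures and 8.83 and 9.37 on those from LP-DC cultures. In Foxp3+ cells the same averages were 9.63 and 9.79 with Sp-DCs and 8.97 and 9.08 with LP-DCs. The LP-DC arrays were the lower in both sorts, with no overlap. Of 36 members, 30 were lower with LP-DCs in Foxp3- cells and 29 in Foxp3+ cells, with median log2 differences of -0.55 and -0.35 where the medians over all 11940 genes tested were -0.003 and 0.006. For the 17 sterol enzymes the medians were -0.80 and -0.72. In bulk RNA of this kind, fewer cells of one type and less RNA per cell cannot be told apart.

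**Figure D1:**
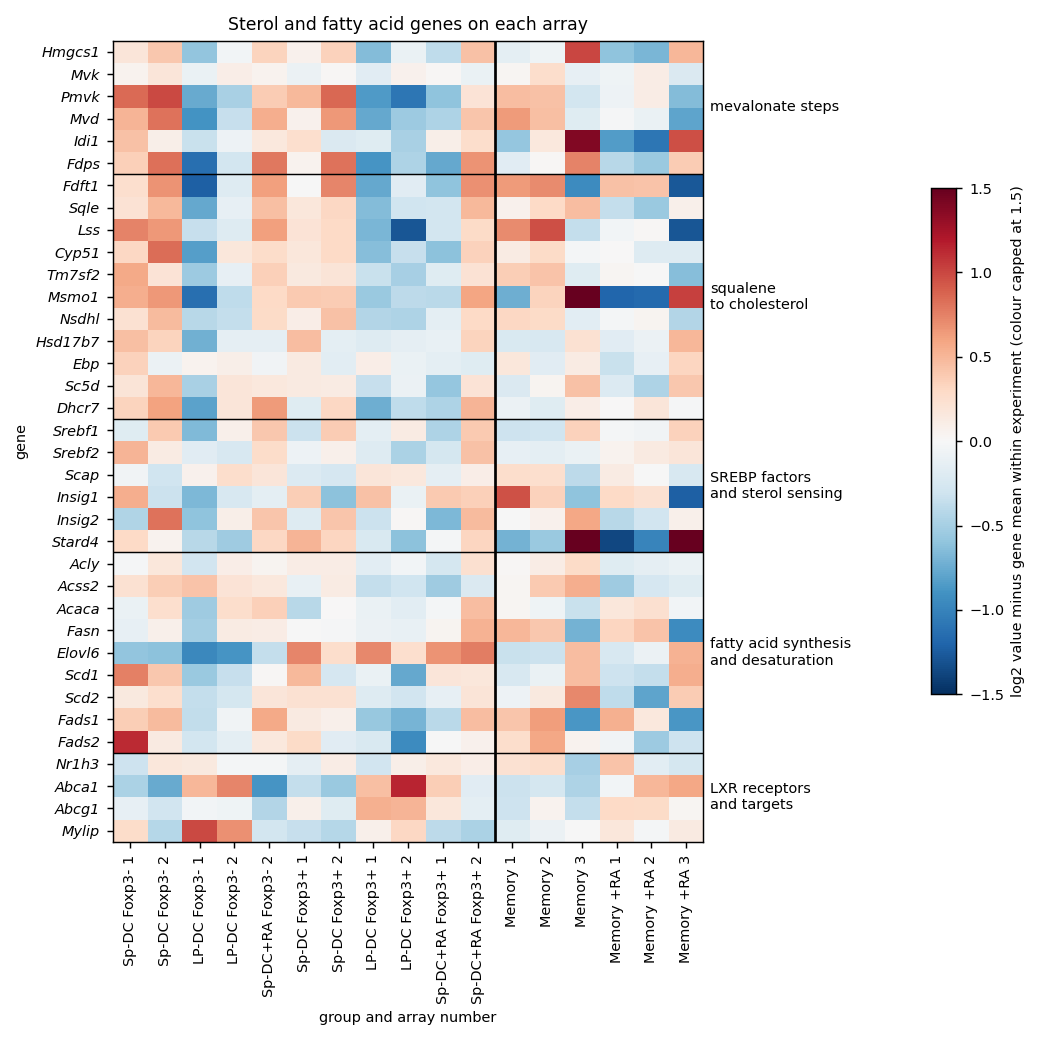
Each row is 1 of the 36 genes, ordered by role, and each column 1 of the 17 arrays; colour gives the log2 value minus the gene's mean within its experiment, capped at 1.5. Most sterol enzymes are blue (lower) on the LP-DC arrays, more faintly on Foxp3- array 2, and on array 1 of Foxp3+ cells from Sp-DC plus RA, while Abca1 is red on the 4 LP-DC arrays.

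Both of the following fits were made with limma. One had a term for each group only, and by it no member passed an adjusted p of 0.05 in either sort, nor did any other gene (0% of 11940 in each; 959 genes in Foxp3+ and 795 in Foxp3- cells had an unadjusted p under 0.05). The other also had the array number as a block, because arrays of the same number deviated together. By this fit 5 members fell and 1 rose in Foxp3+ cells, where 1.44% of all genes were called in either direction. In Foxp3- cells 5 members fell and none rose, where 0.586% of all genes were called. The fit without the block was set as the main one, and the blocked fit as an alternative to it. The labels do not say what the array number marks. Below, a verb of change and an adjusted p refer to the blocked fit unless the other is named, so most calls given are those of the alternative.

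Among the mevalonate steps, Pmvk, whose enzyme phosphorylates phosphomevalonate, had the largest difference. Its log2 values in Foxp3- cells were 10.38 and 10.51 with Sp-DCs and 8.77 and 9.04 with LP-DCs. In Foxp3+ cells they were 10.01 and 10.39 with Sp-DCs and 8.68 and 8.44 with LP-DCs. Every LP-DC array lay more than a log2 unit below every Sp-DC array of its sort. Pmvk was 2.91-fold lower in Foxp3- cells (log2 difference -1.54 ± 0.21 SE, n = 2 per group, adjusted p = 0.027) and 3.12-fold lower in Foxp3+ cells (-1.64 ± 0.21, adjusted p = 0.0216).

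Mvd, the decarboxylase that makes isopentenyl diphosphate, read 8.27 and 8.58 with Sp-DCs and 6.88 and 7.43 with LP-DCs in Foxp3- cells. In Foxp3+ cells it read 7.83 and 8.42 against 7.004 and 7.23. It fell by 1.28 ± 0.16 (adjusted p = 0.0269) and by 1.01 ± 0.16 (adjusted p = 0.0321) on the log2 scale. The groups did not overlap in either sort, and the array numbered 1 was the lower in each of the 4 groups. Fdps, which makes farnesyl diphosphate, read 9.07 and 9.54 against 7.59 and 8.44 in Foxp3- cells, and 8.77 and 9.53 against 7.83 and 8.25 in Foxp3+ cells. It fell by 1.29 ± 0.22 (adjusted p = 0.0437) and by 1.11 ± 0.22 (adjusted p = 0.0481). Its groups stayed apart although array 1 was below array 2 in each of them. Its only other probe set, which was above the median on none of the 17 arrays, differed by -0.08 and 0.06, so the Fdps result rests on 1 probe set. With both averaged, the differences were -0.69 and -0.53 and neither passed (adjusted p = 0.0667 and 0.0895).

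Hmgcs1, the synthase that opens the route to mevalonate and whose promoter holds the SREBP motif, was among the brightest members. It read 13.51 and 13.74 against 12.75 and 13.30 in Foxp3- cells, and 13.40 and 13.68 against 12.69 and 13.24 in Foxp3+ cells. The groups did not overlap, but the differences of -0.60 ± 0.16 and -0.58 ± 0.16 did not pass (adjusted p = 0.0982 and 0.0903). Its 4 other probe sets had the same sign in both sorts. Idi1 differed by -0.47 and -0.35 and Mvk by -0.12 and -0.02, and neither passed.

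From squalene to cholesterol, 11 genes were measured. On the probe sets used, all were lower with LP-DCs in Foxp3- cells and 10 of 11 in Foxp3+ cells. Fdft1, squalene synthase, read 10.11 and 10.54 against 8.64 and 9.67 in Foxp3- cells and fell by 1.17 ± 0.19 (adjusted p = 0.0437). In Foxp3+ cells it read 9.86 and 10.59 against 9.09 and 9.70, with no overlap, and the difference of -0.83 ± 0.19 did not pass (adjusted p = 0.061). Fdft1 is read here by a probe set that can also bind related sequences, and its other probe set above the median on every array differed by -1.11 and -0.94. With all 4 of its probe sets averaged, it differed by -0.62 in Foxp3- cells (adjusted p = 0.0667).

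Lss, the cyclase that makes lanosterol, read 10.23 and 10.14 against 9.14 and 9.30 in Foxp3- cells, and 9.69 and 9.80 against 8.81 and 8.21 in Foxp3+ cells. It fell by 1.24 ± 0.23 in Foxp3+ cells (adjusted p = 0.0428), and differed by -0.96 ± 0.23 in Foxp3- cells (adjusted p = 0.0752). All LP-DC arrays were below all Sp-DC arrays of the same sort. With all probe sets averaged, Lss differed by -0.82 in Foxp3+ cells (adjusted p = 0.0684). Msmo1, a methylsterol oxidase, read 9.69 and 9.80 against 8.02 and 8.77 in Foxp3- cells, where it fell by 1.35 ± 0.23 (adjusted p = 0.0437). Its Foxp3+ values, 9.54 and 9.53 against 8.59 and 8.75, were also apart, with a difference of -0.87 ± 0.23 (adjusted p = 0.0855). Nsdhl, a dehydrogenase of the same demethylation steps, read 10.10 and 10.43 against 9.56 and 9.53 in Foxp3+ cells and fell by 0.72 ± 0.14 (adjusted p = 0.0481). In Foxp3- cells Nsdhl read 10.23 and 10.47 against 9.59 and 9.64 and differed by -0.74 ± 0.14 (adjusted p = 0.0577). The near-equal sizes in the 2 sorts lie on opposite sides of the threshold.

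Sqle, the squalene epoxidase, read 11.11 and 11.38 against 10.12 and 10.77 in Foxp3- cells, and 11.06 and 11.20 against 10.24 and 10.58 in Foxp3+ cells. Its differences of -0.80 ± 0.17 and -0.72 ± 0.17 did not pass (adjusted p = 0.0611 and 0.0607). Cyp51, Tm7sf2, Hsd17b7, Sc5d and Dhcr7 differed by -0.90 to -0.50 in Foxp3- cells and by -0.73 to -0.33 in Foxp3+ cells, with none past the threshold. Hsd17b7 is read by a probe set that can also bind related sequences. Its 3 other probe sets differed by -0.17 to 0.12 in Foxp3- and by -0.20 to -0.03 in Foxp3+ cells. The 2 other Sc5d probe sets, both above the median on every array, differed by -0.25 and -0.08 in Foxp3- cells. In Foxp3+ cells they had the opposite sign, at 0.05 and 0.07. Ebp, a sterol isomerase, differed least, by -0.06 and 0.02.

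**Figure D2:**
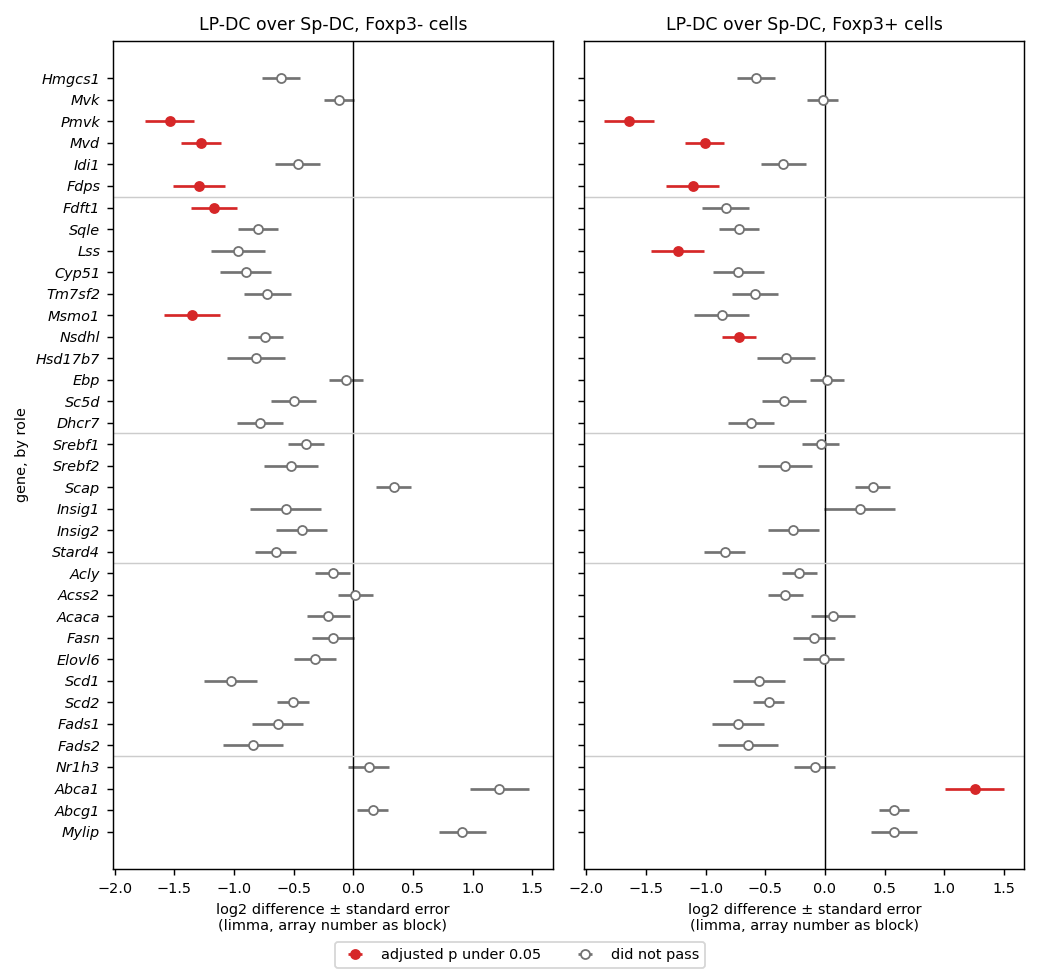
Points are log2 differences, LP-DC minus Sp-DC, with standard errors from the fit with array number as block, for Foxp3- cells (left) and Foxp3+ cells (right), with genes grouped by role from mevalonate steps (top) to LXR genes (bottom). Filled points passed an adjusted p of 0.05: 5 lower on the left, 5 lower and 1 higher on the right.

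The 6 regulators and sensors had median differences of -0.48 in Foxp3- and -0.15 in Foxp3+ cells, and none passed in either sort. Srebf2, the SREBP gene tied most closely to sterol synthesis, read 9.06 and 8.68 against 8.38 and 8.31 in Foxp3- cells, and 8.47 and 8.63 against 8.36 and 8.07 in Foxp3+ cells. The differences were -0.53 ± 0.23 and -0.33 ± 0.23, with no overlap of the arrays. Srebf1, tied more to fatty acid synthesis, read 8.16 and 8.73 against 7.68 and 8.42 in Foxp3- cells, and 8.01 and 8.72 against 8.20 and 8.47 in Foxp3+ cells, so its groups overlapped in both. Insig1, itself an SREBP target as well as a brake, read 8.93 and 8.06 against 7.71 and 8.15 in Foxp3- cells, and 8.76 and 7.78 against 8.83 and 8.29 in Foxp3+ cells. It differed by -0.57 ± 0.30 in one sort and by 0.29 ± 0.30 in the other, and neither passed. Stard4, a sterol carrier, differed by -0.65 ± 0.17 and -0.84 ± 0.17 without overlap (adjusted p = 0.0977 and 0.05004, the latter just above the threshold). Insig2 differed by -0.43 and -0.26. Scap was slightly higher with LP-DCs, by 0.34 and 0.40, and did not pass.

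The 9 fatty acid genes had median differences of -0.32 and -0.33, and none passed in either sort. On the probe sets used, the 4 desaturase genes averaged lower in both. Scd1, which makes monounsaturated from saturated fatty acids, read 10.97 and 10.62 against 9.66 and 9.88 in Foxp3- cells (difference -1.03 ± 0.22, adjusted p = 0.0628), with no overlap. In Foxp3+ cells Scd1 read 10.70 and 9.97 against 10.12 and 9.45, and the groups overlapped. Scd2, its close relative, read 13.29 and 13.39 against 12.78 and 12.88 in Foxp3- cells, and 13.37 on both arrays against 12.94 and 12.85 in Foxp3+ cells. The Scd2 differences of -0.51 ± 0.13 and -0.47 ± 0.13 were tight but did not pass (adjusted p = 0.097 and 0.0969). Fads1 and Fads2, the desaturases of polyunsaturated fatty acids, differed by -0.63 and -0.84 in Foxp3- cells and by -0.73 and -0.64 in Foxp3+ cells. None of these differences passed. The other Fads1 probe set, also above the median on every array, differed by 0.24 in Foxp3- and by -0.11 in Foxp3+ cells. Fasn, the fatty acid synthase, read 8.91 and 9.11 against 8.52 and 9.15 in Foxp3- cells and 9.03 and 9.01 against 8.94 and 8.92 in Foxp3+ cells, with differences of -0.17 and -0.09. Acly, Acaca and Acss2, which supply acetyl-CoA and malonyl-CoA, differed by -0.33 to 0.07 over both sorts, and Elovl6 by -0.32 in Foxp3- and -0.01 in Foxp3+ cells.

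Of the 4 LXR genes, 4 averaged higher with LP-DCs in Foxp3- and 3 in Foxp3+ cells, with medians of 0.54 and 0.58. Abca1, the exporter of cholesterol to apolipoproteins, read 6.32 and 6.03 with Sp-DCs and 7.29 and 7.52 with LP-DCs in Foxp3- cells. In Foxp3+ cells it read 6.44 and 6.24 against 7.25 and 7.94. The LP-DC arrays were higher without overlap in both sorts, and Abca1 rose by 1.25 ± 0.25 in Foxp3+ cells (2.39-fold, adjusted p = 0.0481). In Foxp3- cells the difference was 1.23 ± 0.25 (adjusted p = 0.0588). With Sp-DCs Abca1 lay close to the array median, at 6.03 to 6.44, where values are least certain. Its 2 other probe sets were near background and differed by -0.14 to 0.18, so this result rests on 1 probe set. Its size also turned on single arrays: in Foxp3+ cells it was 0.81 without LP-DC Foxp3+ array 2 (adjusted p = 0.445) and 1.70 without LP-DC Foxp3+ array 1 (adjusted p = 0.0167), and it passed in 9 of 17 blocked fits. Abcg1, which exports cholesterol to high-density lipoprotein, read 8.94 and 8.68 against 9.40 and 9.37 in Foxp3+ cells, and 8.74 and 8.57 against 8.83 and 8.80 in Foxp3- cells. The differences were 0.58 ± 0.13 (adjusted p = 0.0572) and 0.16 ± 0.13. Mylip, which marks lipoprotein receptors for degradation, was 0.92 ± 0.20 and 0.58 ± 0.20 higher (adjusted p = 0.0625 and 0.145). Nr1h3, the gene of LXR alpha, sat close to the array median at 5.99 to 6.48 on co-culture arrays and differed by 0.13 and -0.09.

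Counted by arrays that did not overlap, 22 members were lower and 4 higher with LP-DCs in Foxp3- cells, against 32% of all genes tested in either direction. In Foxp3+ cells 21 were lower and 4 higher, against 38.5% of all genes. The 2 sorts used different arrays but share array numbers and 1 fit. They were separated only after culture and may come from the same cultures, so they are not independent repeats. Of 22 further probe sets of 15 members above the median on all 17 arrays, 20 had the sign of the one used in Foxp3- cells and 19 in Foxp3+ cells. When each gene was read by the mean of all its probe sets, 1 member passed in each sort.

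These counts turned on single arrays. In Foxp3+ cells no member passed without LP-DC Foxp3+ array 2, Sp-DC Foxp3+ array 2 or either Sp-DC Foxp3- array, and 3 passed without Sp-DC Foxp3+ array 1. In Foxp3- cells no member passed without any one of the 4 arrays compared, and 10 passed without either LP-DC Foxp3+ array. Each called member kept its direction in every one of these fits, which groups that do not overlap make likely in advance. The list of dendritic cell markers averaged 6.37 to 6.58 on Sp-DC arrays and 6.18 to 6.40 on LP-DC arrays, and its defining marker Itgax was below the array medians on all of them. H2-Ab1, an MHC class II gene of that list, read 9.88 to 10.76 with Sp-DCs and 8.85 to 9.52 with LP-DCs, and fell by 1.28 ± 0.21 in Foxp3- cells (adjusted p = 0.0434). The other 4 tested genes of that list differed by -0.07 to 0.06 in Foxp3- cells and by -0.25 to 0.50 in Foxp3+ cells, with none called, and the list medians over 5 genes were -0.04 and -0.18. Nkg7, a granule gene of cytotoxic cells, fell by 1.70 ± 0.23 in Foxp3+ cells (adjusted p = 0.0216), where the other 2 genes of its list, Cd8a and Klrd1, differed by -0.18 and -0.39 and were not called; none of the 11 cell division genes was called in either sort (medians 0.09 and -0.07). Their part in the sterol differences was not tested.

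**Figure D3:**
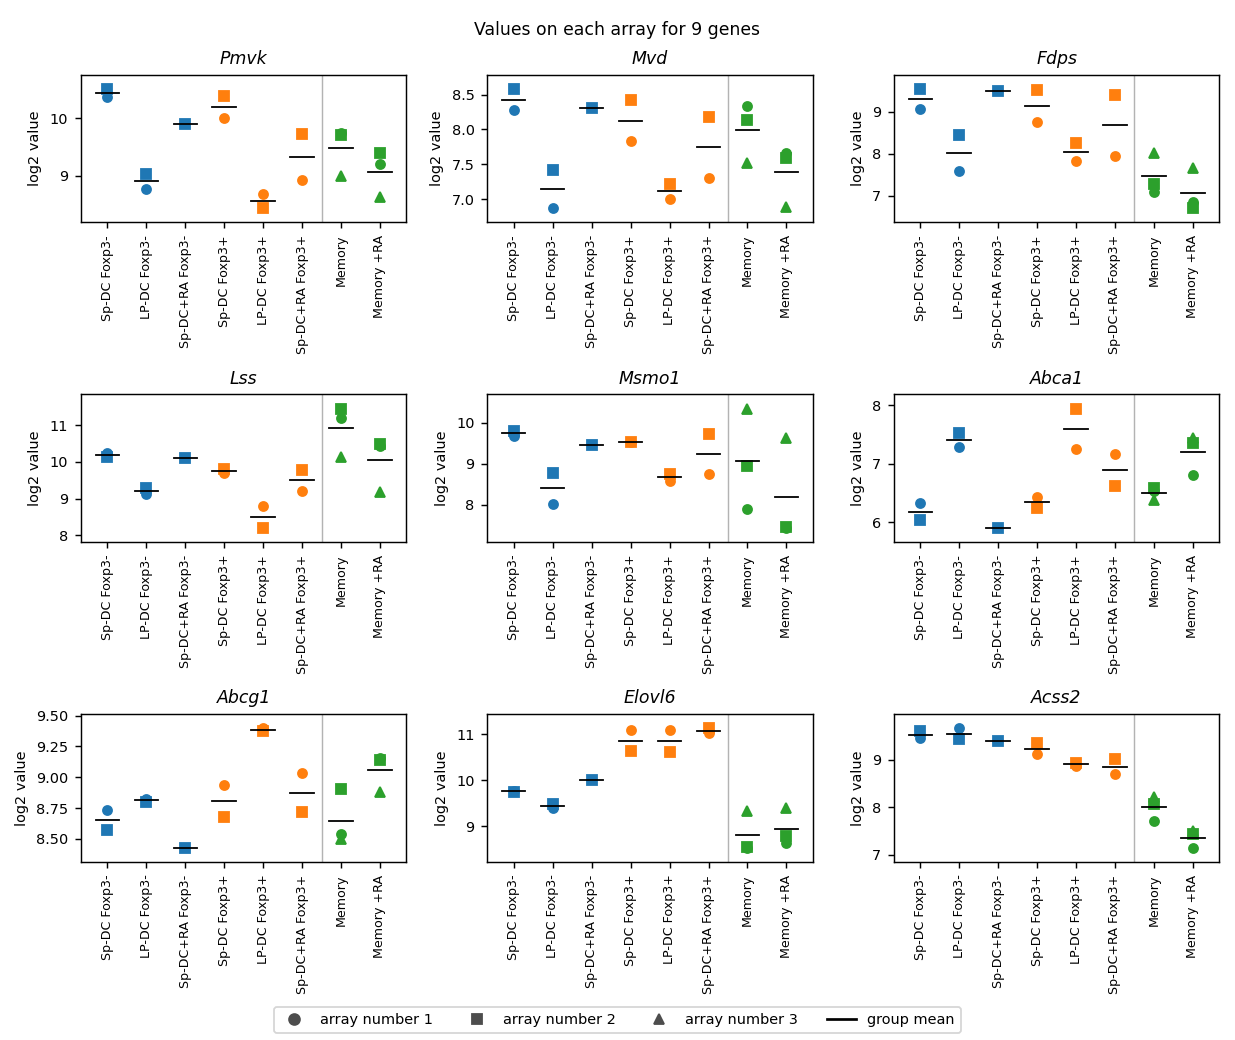
Each point is 1 array's log2 value for 9 genes in the 8 groups, with the symbol giving the array number and the line the group mean; blue is Foxp3-, orange Foxp3+ and green memory cells. Pmvk, Mvd, Fdps, Lss and Msmo1 are lower and Abca1 higher in the LP-DC groups, Elovl6 is higher in Foxp3+ cells, and Acss2 is lower and Abca1 higher with RA in memory cells.

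When RA was added to Sp-DC cultures, no member passed in Foxp3+ cells, where 0.101% of all genes passed without the block (12 genes) and 1.03% with it (123 genes). The sterol enzymes were lower in 16 of 17 cases but with a median of -0.19, and 6 members had arrays that did not overlap, against 25.3% of all genes. The largest difference was again in Pmvk, at 10.01 and 10.39 without RA and 8.92 and 9.72 with RA (-0.88 ± 0.21, adjusted p = 0.097). The 2 RA arrays lay far apart: the sterol enzymes averaged 9.13 on number 1, below both Foxp3+ arrays from Sp-DC cultures without RA and just above both from LP-DC cultures, and 9.82 on number 2, above all 4 of them. Of 3 tested CD8 T and natural killer cell genes, 2 were lower and 1 higher on average with RA, with a median of -1.12. Only Klrd1, a receptor of natural killer cells, was called, and it fell by 1.43 ± 0.24 (adjusted p = 0.0247). The part of these genes was not tested. Abca1 read 7.16 and 6.62 with RA against 6.44 and 6.24 without (0.55 ± 0.25, adjusted p = 0.412).

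In Foxp3- cells RA is represented by 1 array. Its sterol enzyme mean of 9.82 lay just under the 2 Sp-DC arrays. No member passed in a fit that takes that array to vary like the others, where 0.00838% of genes passed without the block (1 gene) and 0.268% with it (32 genes). Abca1 read 5.90 on that array, the lowest of all 11 co-culture arrays.

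Foxp3+ cells from LP-DC cultures were also set beside Foxp3+ cells from Sp-DC cultures that had received RA. No member passed in either fit, where 0.0921% of genes passed without the block and 1.83% with it. The members' median difference was -0.37, with 29 of 36 lower, and 16 were lower and 5 higher without overlap, against 28.2% of all genes. Lss differed most, at 8.81 and 8.21 with LP-DCs and 9.22 and 9.78 with Sp-DCs plus RA (-0.99 ± 0.23, adjusted p = 0.0678). The LP-DC arrays are the same as in the comparison with Sp-DCs alone, so the 2 comparisons share them, as the comparison of RA with none shares the Sp-DC arrays.

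**Figure D4:**
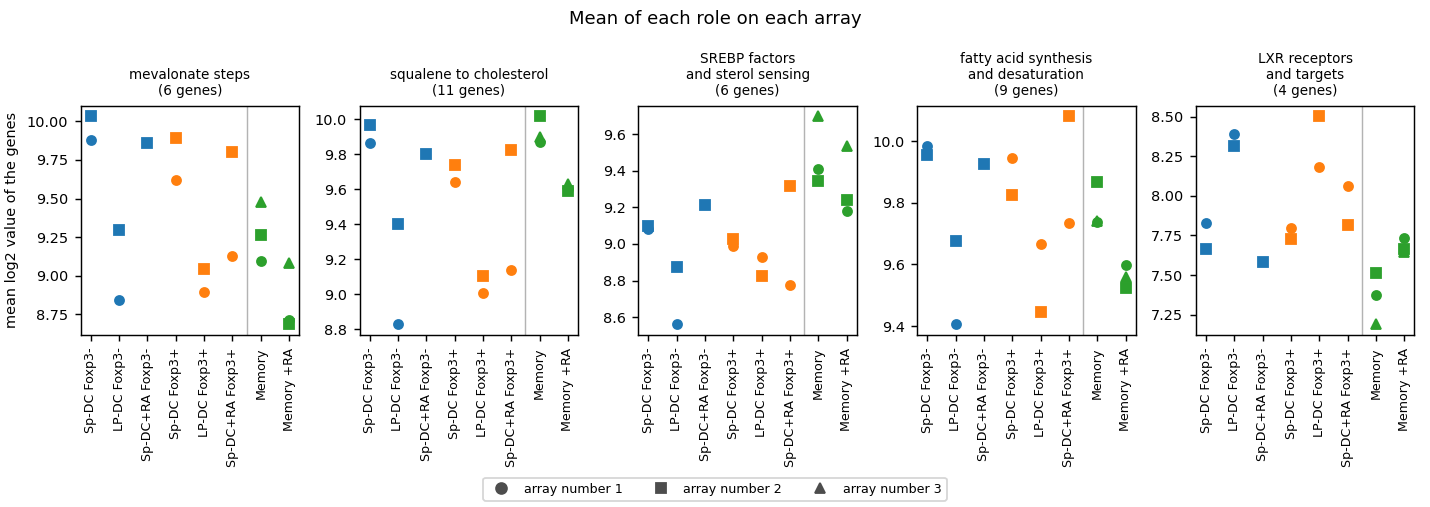
Points are the mean log2 value of each role's measured genes on each array, by group, with the symbol giving the array number. In both sterol panels the 4 LP-DC arrays and array 1 of Foxp3+ cells from Sp-DC plus RA are the lowest of the co-culture arrays.

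Comparing Foxp3+ with Foxp3- cells of the same kind of culture, 1 member stood out. Elovl6, the enzyme that lengthens palmitate to stearate, read 9.77 and 9.75 in Foxp3- and 11.10 and 10.63 in Foxp3+ cells from Sp-DC cultures. In LP-DC cultures it read 9.40 and 9.48 against 11.09 and 10.62. With Sp-DCs plus RA it read 10.01 on the single Foxp3- array and 11.03 and 11.13 on the Foxp3+ arrays. All 6 Foxp3+ arrays were above all 5 Foxp3- arrays. Averaged over the 3 cultures, Elovl6 rose 2.25-fold in Foxp3+ cells (1.17 ± 0.11, adjusted p = 0.000776), and it was the only member to pass without the block as well (1.20 ± 0.13, adjusted p = 0.0154). Its other probe set above the median on every array differed by 1.28. It passed in all 17 of the blocked fits with other settings or arrays left out, but not in the unblocked fit without LP-DC Foxp3- array 1, LP-DC Foxp3+ array 1 or Sp-DC Foxp3- array 1.

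Acss2, which makes acetyl-CoA from acetate, was lower in Foxp3+ cells, and Abcg1 was higher. Acss2 read 9.46, 9.61, 9.67, 9.44 and 9.40 on the Foxp3- arrays and 9.12, 9.35, 8.88, 8.94, 8.70 and 9.02 on the Foxp3+ arrays, with no overlap. It fell by 0.48 ± 0.09 over the 3 cultures (adjusted p = 0.0192). Abcg1 rose by 0.36 ± 0.08 (adjusted p = 0.0354). It read 8.43 on the single Foxp3- array and 9.04 and 8.72 on the Foxp3+ arrays from Sp-DC plus RA. Over the 3 cultures its Foxp3+ and Foxp3- arrays overlapped. Abcg1 passed in 7 of 17 blocked fits with other settings or arrays left out, and Acss2 in 13 of 17. Lss differed by -0.58 ± 0.14 (adjusted p = 0.0517). So 3 members passed with the block, where 4.75% of all genes did, and 1 without it, where 0.896% did. Only Elovl6 passed when LP-DC Foxp3- array 1, LP-DC Foxp3+ array 2 or Sp-DC Foxp3- array 1 was left out, and 5 members passed without the number 2 Foxp3+ array from Sp-DC plus RA.

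Within LP-DC cultures Elovl6 rose by 1.41 ± 0.17 (adjusted p = 0.00281), Abcg1 rose by 0.57 ± 0.13 (adjusted p = 0.0449) and Acss2 fell by 0.64 ± 0.15 (adjusted p = 0.0485). With both of its probe sets averaged, Abcg1 differed by 0.33 (adjusted p = 0.148). These 3 compare with 3.49% of all genes called with the block and 0.159% without it. Elovl6 alone of them passed when any one of 6 arrays was left out: LP-DC Foxp3- array 1, LP-DC Foxp3+ array 2 or any of the 4 Sp-DC arrays. Within Sp-DC cultures Elovl6 rose by 1.10 ± 0.17 (adjusted p = 0.036), where 0.586% of genes were called with the block and 0% without it (limma; 418 genes at an unadjusted p under 0.05). That call was lost without Sp-DC Foxp3+ array 1, either Sp-DC Foxp3- array or either Foxp3+ array from Sp-DC plus RA. The arrays of 9 members did not overlap in LP-DC cultures and of 12 in Sp-DC cultures, against 29.1% and 27.8% of all genes. All 17 sterol enzymes were lower on average in Foxp3+ cells with Sp-DCs, but with a median of -0.21 and none past the threshold. No member and no other gene passed a limma test of whether the sort difference differed between the LP-DC and Sp-DC cultures (0% with and without the block; 439 and 108 genes at an unadjusted p under 0.05). The gap was 0.31 ± 0.25 for Elovl6 and 0.42 ± 0.18 for Abcg1. All 11 cell division genes averaged lower in Foxp3+ cells of LP-DC cultures, with a median of -0.36 and none called. Klrd1 fell by 2.14 ± 0.15 in Foxp3+ cells over the 3 cultures (adjusted p = 0.000204). Of the 3 tested genes of its list only Klrd1 was called, and the list median was -0.53. The part of either in the member differences was not tested.

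In memory cells the sterol enzymes were again lower and Abca1 higher, here with RA. The sterol enzymes averaged 9.60 to 9.75 on the 3 arrays without RA and 9.27 to 9.44 on the 3 with RA, without overlap. Of 17, 15 were lower on average and 13 were lower in each of the 3 same-numbered pairs, with a median of -0.40. Over all 36 members, 26 were lower, with a median of -0.26 against -0.001 for all 12163 genes. With array number as a block, 5 members fell and 1 rose, where 5.15% of all genes were called in either direction. Without the block none passed, where 0.0987% of genes did.

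Lss read 11.19, 11.45 and 10.13 without RA on arrays 1, 2 and 3, and 10.44, 10.49 and 9.19 with RA. Both number 3 arrays were low. The groups overlapped because array 3 without RA lay below arrays 1 and 2 with RA, but within each number RA was lower. The differences were -0.75, -0.96 and -0.93, and it fell by 0.88 ± 0.13 (adjusted p = 0.00373). Mvd read 8.33, 8.14 and 7.51 against 7.67, 7.59 and 6.90 and fell by 0.61 ± 0.12 (adjusted p = 0.0232). Hmgcs1 read 12.15, 12.23 and 13.29 against 11.69, 11.60 and 12.79 and fell by 0.53 ± 0.13 (adjusted p = 0.0453). Msmo1 read 7.89, 8.95 and 10.35 against 7.43, 7.46 and 9.64 and fell by 0.89 ± 0.19 (adjusted p = 0.0297). In these 4 genes the spread between numbers was larger than the RA difference, and the direction was the same in each number.

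Acss2 and Abca1 were called and also separated the groups. Acss2 read 7.71, 8.07 and 8.22 without RA and 7.15, 7.43 and 7.49 with RA, and fell by 0.64 ± 0.13 (adjusted p = 0.0182). With all 3 of its probe sets averaged it differed by -0.39 (adjusted p = 0.0964). Abca1 read 6.53, 6.59 and 6.39 without RA and 6.81, 7.35 and 7.43 with RA. It rose by 0.70 ± 0.16 (1.62-fold, adjusted p = 0.042). Without RA, Abca1 lay close to the array median. Its 2 other probe sets, neither above the median on every array, differed by -0.07 and 0.35, so this result rests on 1 probe set. In all, 5 members had arrays that did not overlap, 2 higher and 3 lower, against 7.78% of all genes. The others were Srebf2 (0.25, higher), Fads2 (-0.60) and Acly (-0.28), none of which passed.

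The remaining members did not pass with RA in memory cells. Sqle read 11.16, 11.39 and 11.56 against 10.73, 10.54 and 11.18 (-0.56 ± 0.14, adjusted p = 0.0608). Srebf2 read 8.41, 8.38 and 8.43 against 8.58, 8.67 and 8.71 (0.25 ± 0.12, adjusted p = 0.403), and Srebf1 read 8.59, 8.60 and 9.26 against 8.88, 8.85 and 9.25. Both SREBP genes averaged slightly higher with RA. The other Srebf2 probe set, also above the median on every array, differed by 0.02. Insig1 read 11.43, 10.82 and 9.88 against 10.78, 10.71 and 9.26 (-0.46 ± 0.15, adjusted p = 0.138). Fasn read 10.27, 10.19 and 9.07 against 10.10, 10.21 and 8.84, Scd1 read 9.81, 9.95 and 10.51 against 9.75, 9.69 and 10.60, and neither passed. Scd2 read 12.87, 13.10 and 13.68 against 12.57, 12.17 and 13.34 (-0.52 ± 0.16, adjusted p = 0.107). Abcg1 read 8.54, 8.91 and 8.50 against 9.16, 9.14 and 8.88 (0.41 ± 0.13, adjusted p = 0.146), higher in each number though the groups overlapped.

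**Figure D5:**
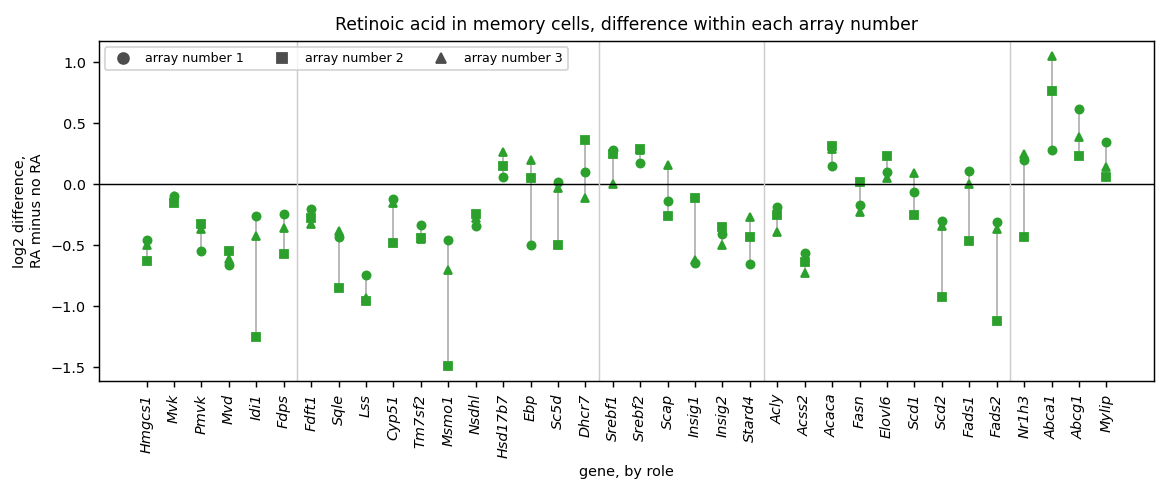
Points are log2 differences, RA minus no RA, between memory arrays of the same number, for 36 genes ordered by role; the grey line spans the 3 numbers. The 6 mevalonate genes are below 0 in all 3 numbers and Abca1, Abcg1 and Mylip above 0, while Idi1, Msmo1 and Fads2 spread widely.

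Without the number 3 arrays the called genes kept differences of similar size, but none passed. From numbers 1 and 2 alone, Lss averaged -0.85, Mvd -0.61, Hmgcs1 -0.54, Msmo1 -0.97 and Acss2 -0.60, and Abca1 averaged 0.52. The median was -0.39 over the 17 sterol enzymes, of which 15 were lower on average, and -0.24 over all 36 members, of which 27 were lower. No member passed with the block, although 216 genes of the whole array did; leaving out either number 3 array or both gives this same blocked fit. Without array 1 of either group, 10 members passed. With all memory arrays kept, markers of other cells and states also moved with RA. Of 3 tested CD8 T and natural killer cell genes, Nkg7 rose by 1.76 ± 0.16 (adjusted p = 0.00034) and Klrd1 by 0.87 ± 0.14 (adjusted p = 0.00707), and Cd8a differed by -0.06. Of 5 dendritic cell genes, Batf3 fell by 0.81 ± 0.13 (adjusted p = 0.00552), 4 were lower on average and the median was -0.31. Of 6 T cell genes, Cd3e rose by 0.57 and Cd2 fell by 0.65. Of 5 regulatory T cell genes, Gpr83 rose by 0.80 and Il2ra fell by 0.68, and of the pair Cd44 and Ccr7, the latter fell by 0.58 (adjusted p = 0.0425, 0.0289, 0.032, 0.0246 and 0.0298 in this order). No macrophage or B cell gene was called, and none of the 11 cell division genes was called (median 0.01). Their part in the member differences was not tested.

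Whether RA acted differently in memory cells and in Foxp3+ co-culture cells was tested directly. No member passed, where 0.052% of genes passed without the block and 1.51% with it. The widest gap was in Insig1, which averaged lower with RA in memory cells and higher in Foxp3+ cells, a difference of -0.95 ± 0.36 (adjusted p = 0.265). For Abca1 the gap was 0.14 ± 0.32. The cultures also differ in length, stimulus and RNA source, so levels were not compared between them.

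A list of 30 other genes of lipid handling, 26 of them tested in each experiment, gave 1 call in each sort for LP-DC over Sp-DC (3.85%, against 0.586% of all genes in Foxp3- and 1.44% in Foxp3+ cells). With RA in memory cells it gave 2 (7.69%, against 5.15%). Lpin1, a phosphatidate phosphatase of triglyceride synthesis, fell with LP-DCs in Foxp3- cells (-1.25 ± 0.20, adjusted p = 0.0434) and in Foxp3+ cells (-1.01 ± 0.20, adjusted p = 0.0484). It also fell with RA in memory cells (-0.80 ± 0.13, adjusted p = 0.00581). Mid1ip1, which stimulates acetyl-CoA carboxylase, fell with RA in memory cells (-0.67 ± 0.16, adjusted p = 0.0437). No other gene of that list passed in these 3 comparisons, and its median differences were -0.03, -0.02 and -0.06.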

How the data were processed

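Affymetrix M430v2 arrays measured RNA amplified in 2 rounds, per the labels. The authors deposited linear intensity values made with RMA in GenePattern, per the series' design text; whether all arrays were normalized together is not given in the sources used here. Log2 was taken with no pseudocount. Groups came from titles and the sort after culture. Source names of some Foxp3+ arrays say Foxp3-, which is also the state of the starting cells, and there the titles were followed. Of a gene's probe sets the brightest on average was used; genes brighter than their array's median in 2 or more arrays of an experiment were tested with limma 3.58.1 (R 4.3.3), fitted per experiment over all genes, Benjamini-Hochberg threshold 0.05. The main fit had group terms only, and an alternative, blocked fit added the array number. Same-numbered arrays deviated together (residual correlations 0.451 to 0.756 in co-culture, from only 2 numbers, and 0.656 to 0.94 in memory cells), and the labels' array serial names run together by number in co-culture. Nothing says that arrays of a group are separate cultures, so p-values measure the spread between arrays, which may be technical; their number limits precision. Array values are given for members called in either fit with groups that do not overlap, and for 10 more listed by name; members called in memory cells with overlapping groups are shown too. Members and lists were chosen with earlier results of these data known. Scripts were tested on simulated data. Alternatives were other normalization, filter, pseudocount, probe set, variance model and arrays left out.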

Additional observations from a re-analysis of the deposited data

How the results depend on the processing

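With 2 or 3 arrays a group, precision is limited, and low values near the array median are the least certain. All 20 results for single members kept their direction in every setting. Those from comparisons of 2 groups were chosen for arrays that do not overlap, which makes a reversal unlikely in advance. The memory calls with overlapping groups (Lss, Mvd, Hmgcs1 and Msmo1) were not among the 20. Adding the array number (the replicate block) moved the count of members called from 0 to 6 for RA in memory cells, 0 to 6 and 0 to 5 for LP-DC over Sp-DC in Foxp3+ and Foxp3- cells, 1 to 3 for Foxp3+ over Foxp3- cells over the 3 cultures, 0 to 3 in LP-DC and 0 to 1 in Sp-DC cultures; it changed no other call count. The settings combined with the block, and the paired leave-out fits, were chosen after seeing the data.

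Without the block, quantile normalization gave 1 call for the sort in LP-DC cultures. With it, quantile normalization gave 11 and 8 calls for LP-DC over Sp-DC in Foxp3+ and Foxp3- cells, 2 for LP-DC over Sp-DC plus RA and 1 for RA in Foxp3+ cells. With the block, adding 32 before log2 gave 2 calls in Foxp3- cells. The mean of all probe sets gave 1 in each sort for LP-DC over Sp-DC. For the sort it gave 1 in LP-DC and 0 in Sp-DC cultures. That mean left Abca1 under the filter in co-culture and in memory cells, so Abca1 was not tested with it. The trended, robust variance gave 9 in Foxp3- cells and 1 for the sort in LP-DC cultures. The cause was not tested. Leaving out both memory arrays numbered 3 gave 0.

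Leaving out 1 array at a time, blocked counts ranged from 0 to 10 for RA in memory cells, 0 to 7 and 0 to 10 for LP-DC over Sp-DC in Foxp3+ and Foxp3- cells, and 0 to 1 for LP-DC over Sp-DC plus RA. They ranged from 1 to 5 for the sort over 3 cultures, 1 to 3 in LP-DC and 0 to 1 in Sp-DC cultures. Unblocked, the sort gave 0 to 1 over 3 cultures and 0 to 1 in LP-DC cultures; the others stayed at 0. A lone array left in a group was taken to vary like the other groups. Without the Foxp3- array from Sp-DC plus RA, RA in Foxp3- cells and the mean over 3 cultures gave no value.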
